A study of Mus musculus with 2 samples.

Results

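Genomic imprinting leaves 1 parental copy of a gene active and the other silent, and several imprinted loci carry microRNA genes beside their protein-coding or long non-coding genes. Described here are the 5 annotated microRNA genes of imprinted loci other than Dlk1-Dio3 that were named for this purpose by symbol, out of 2202 microRNA genes in the count files. They are Mir335 in Mest, Mir296 and Mir298 at the Gnas locus, Mir483 in Igf2 and Mir675 in H19. The choice rests on genome position and uses no measured value, but it was made with earlier results of these data known. Each symbol matched 1 identifier in the GENCODE M21 annotation that the files use.

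The study profiled small RNA of total RNA from tissue labelled as layer of hippocampus, labelled male, B6CASTF1/J and 36 days of age. B6CASTF1/J mice are first-generation offspring of the inbred strains C57BL/6J and CAST/EiJ. There is 1 group with 2 libraries, which the labels number as biological replicates 2 and 1, and no other condition. The labels give each library a tissue sample of its own but the same donor entry, and they do not settle whether the samples came from separate animals. Each SD over n = 2 is therefore the spread between these samples, which may be technical. The counts are not split by parental allele, so parent-of-origin expression was not measured.

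A microRNA is cut from a hairpin transcript, first by Drosha in the nucleus and then by Dicer in the cytoplasm, and the seed, bases 2 to 8 of the mature strand, is the main contact with target messengers. Mest and Igf2 are known to be transcribed from the paternal chromosome in most mouse tissues, and H19 from the maternal one. H19 and Igf2 are abundant in the embryo and are repressed in most organs after birth. Postnatal expression of Igf2 in the brain is known mainly from the choroid plexus and the leptomeninges. The Gnas locus holds transcripts of either parental origin, among them the antisense RNA Nespas of the paternal chromosome.

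The hairpins of the 5 genes are shown first, since all that follows rests on reads that match them. They come from RefSeq on GRCm38.p6, the build of the files (mm10), all 5 matched by symbol, and each is equal to the GENCODE M21 hairpin in position and in every base. Each runs 5′ to 3′ on the strand of its gene, with the annotated 5p and 3p mature arms in capitals. The gene identifiers in the files are ENSMUSG00000065501.1 for Mir335, ENSMUSG00000065410.1 for Mir298, ENSMUSG00000065521.1 for Mir296, ENSMUSG00000070140.1 for Mir483 and ENSMUSG00000076275.1 for Mir675.
Mir335 (chr6:30741299-30741396, plus strand): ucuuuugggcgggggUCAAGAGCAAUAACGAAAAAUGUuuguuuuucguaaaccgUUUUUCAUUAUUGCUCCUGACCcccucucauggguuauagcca
Mir298 (chr2:174267504-174267585, minus strand): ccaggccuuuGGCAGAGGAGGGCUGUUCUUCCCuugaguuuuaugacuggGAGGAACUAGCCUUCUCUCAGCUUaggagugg
Mir296 (chr2:174267047-174267125, minus strand): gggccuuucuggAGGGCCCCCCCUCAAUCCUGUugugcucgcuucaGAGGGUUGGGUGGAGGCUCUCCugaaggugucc
Mir483 (chr7:142654924-142654996, minus strand): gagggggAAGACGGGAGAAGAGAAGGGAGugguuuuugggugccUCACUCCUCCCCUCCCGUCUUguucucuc
Mir675 (chr7:142577064-142577147, minus strand): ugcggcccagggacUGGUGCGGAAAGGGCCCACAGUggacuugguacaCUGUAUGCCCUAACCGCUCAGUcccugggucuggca

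The 10 mature arms are given next with the seed in capitals, to show that the seeds differ. The files count reads per gene, so the 5p and 3p arms of a gene could not be told apart.
miR-335-5p: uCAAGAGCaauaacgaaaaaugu
miR-335-3p: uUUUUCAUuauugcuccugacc
miR-298-5p: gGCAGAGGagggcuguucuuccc
miR-298-3p: gAGGAACUagccuucucucagcuu
miR-296-5p: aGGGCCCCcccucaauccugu
miR-296-3p: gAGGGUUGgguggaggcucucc
miR-483-5p: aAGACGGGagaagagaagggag
miR-483-3p: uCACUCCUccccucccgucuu
miR-675-5p: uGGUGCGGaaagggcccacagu
miR-675-3p: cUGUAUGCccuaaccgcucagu

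Each of the 10 seeds occurred in 1 named mature microRNA of the RefSeq table only, so the 5 genes share no seed with each other or with any other listed mouse microRNA. Such single seeds are common in that table, where 86.6% of the 1398 seeds belong to 1 name. The longest run of bases common to arms of different genes was 7, between miR-296-5p and miR-675-5p. No other annotated microRNA gene shares a run of 20 or of 16 bases with any of the 5 hairpins, and at 12 bases 2 genes share a run with Mir298. Reads from these genes are therefore not divided with a near-identical annotated copy. Unannotated genomic copies were not looked for.

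The 5 genes differ in base composition. The Mir335 hairpin is A- and U-rich at 42.9% GC, and 25.0% of all annotated hairpins have a lower value. Mir296 at 63.3% GC and Mir675 at 63.1% lie at the other end, above 88.5% and 88.3% of hairpins. Mir298 is at 53.7% and Mir483 at 58.9%, against a median of 50.8% over all 2202 hairpins. The arms of Mir483 are almost purely purine on one side and pyrimidine on the other: miR-483-5p holds 21 purines in 22 bases, and miR-483-3p holds 2 in 21. In miR-296-5p the longest run of C is 7 bases, a length reached by 2 of the 1738 mature sequences in the table.

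The genes also differ in how they sit in their loci. Mir335 lies in an intron of Mest, a gene for a hydrolase-like protein, in all 7 Mest transcripts that span it. Mir483 lies in an intron of Igf2, which encodes insulin-like growth factor 2, in all 7 Igf2 transcripts that span it, and also in an intron of the overlapping gene model Gm49394. Mir675 lies in an exon of the long non-coding RNA H19 in 3 of the 4 transcripts that span it and in an intron in 1. Mir298 and Mir296 lie between annotated genes, 378 bases apart, with Mir298 upstream. The end of Nespas on the same strand is 13651 bases from Mir298, and Gnas, on the opposite strand, starts 16734 bases from it. Besides the 5 genes themselves, the annotation has 1 more microRNA gene within 100 kb of any of them, Gm27591 near Mir296, which had 0 counts in both libraries. Mir483 and Mir675 are 77776 bases apart on the same strand.

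**Figure D1:**
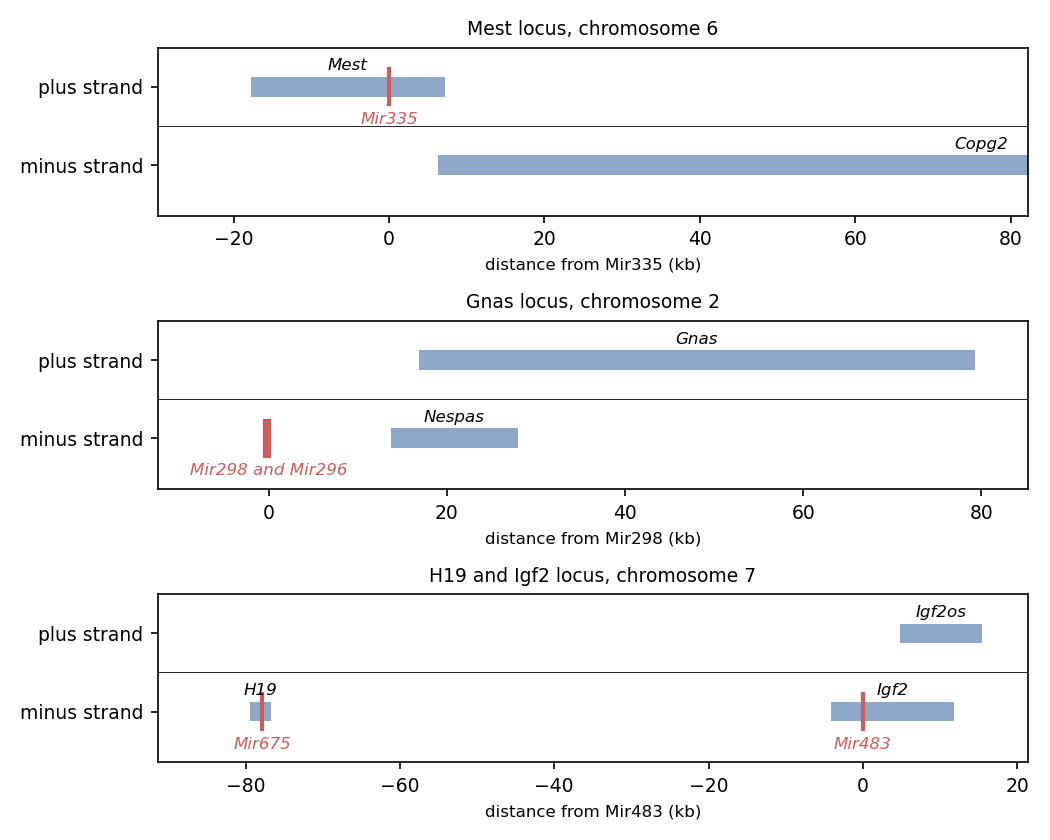
Positions of the 5 microRNA genes (red ticks) and of selected annotated genes (blue bars) in 3 imprinted loci, as distance in kb from the first named microRNA gene in the direction of the plus strand, with the plus strand above and the minus strand below in each panel. Mir335 and Mir483 lie inside Mest and Igf2, Mir675 inside H19, and Mir298 and Mir296 outside the span of Nespas and Gnas. Copg2 runs past the right edge.

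Counts on a microRNA gene's own strand came to 5279877 in replicate 2 and 4404040 in replicate 1. Lines that name no gene, mostly multimapping and unmapped reads, held 65.4% of the reads of replicate 2 and 64.7% of those of replicate 1. Their make-up differed: multimapping reads were 46.5% in replicate 2 and 40.3% in replicate 1. Unmapped reads were 13.7% in replicate 2 and 20.2% in replicate 1. Levels are in CPM, the count scaled to 1000000 of those own-strand counts, and intervals are exact 95% Poisson intervals. They cover counting error only: reads copied by PCR and carrying no molecular identifier cannot be counted as separate molecules. At least 10 counts in each library were seen for 411 of the 2202 genes, while 1424 had none in either. Of 11 neuronal marker genes, 8 reached that level in each library, and the whole list summed to 48759 CPM in replicate 2 and 41973 CPM in replicate 1. Of the Mir124a genes, which define neurons but are near-identical copies, Mir124a-1 had 8 counts in replicate 2 and 11 in replicate 1, Mir124a-2 had 1 in each and Mir124a-3 had 0 in both. Counts come from bulk tissue, so fewer cells of a type and less RNA per cell cannot be told apart.

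Among the 5 genes, 4 were detected and the levels spanned from 3459 CPM in the mean to 0. Mir335 and Mir298 were the most abundant, Mir296 followed at a mean of 338 CPM, Mir483 was lower again, and Mir675 had no count in either library. Together they held 28788 counts in replicate 2, or 0.545% of its counts, and 35150 in replicate 1, or 0.798%. Each read fell on the strand of its gene: the opposite-strand count was 0 for all 5 genes in both libraries, and the either-strand counts were the same as the own-strand counts.

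Mir335 had 17599 counts in replicate 2 and 15791 in replicate 1. In human breast cancer cells miR-335 is known as a suppressor of metastasis, and in mouse the gene is transcribed with Mest. Its level was 3333 CPM in replicate 2 (95% interval 3284 to 3383) and 3586 CPM in replicate 1 (3530 to 3642), with a mean of 3459 ± 178 CPM (SD, n = 2). It ranked 54th of the 2202 genes in replicate 2 and 49th in replicate 1. A standard deviation of 5.16% of the mean was the smallest of the 4 detected genes, below the median of 22.7% over the 411 genes with 10 or more counts in both libraries.

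Mir298 had 8767 counts in replicate 2 and 17752 in replicate 1. In mouse, miR-298 is known to act on the messenger of Bace1, the enzyme that makes the first cut of the amyloid precursor protein. Its level was 1660.5 CPM in replicate 2 (1626 to 1696) and 4031 CPM in replicate 1 (3972 to 4091), with a mean of 2846 ± 1676 CPM (SD, n = 2) that lies far from both. The gene ranked 78th in replicate 2 and 43rd in replicate 1, and its standard deviation was 58.9% of the mean, the largest of the 4. Taken alone, replicate 2 and replicate 1 put the gene on either side of Mir335.

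Mir296 had 1937 counts in replicate 2 and 1361 in replicate 1. In human endothelial cells miR-296 is known to promote the response to vascular growth factors. Its level was 367 CPM in replicate 2 (351 to 384) and 309 CPM in replicate 1 (293 to 326), with a mean of 338 ± 40.9 CPM (SD, n = 2). It ranked 142nd in replicate 2 and 145th in replicate 1.

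Mir483 had 485 counts in replicate 2 and 246 in replicate 1. In human cells miR-483-3p is known to lower the pro-apoptotic protein PUMA. Its level was 91.9 CPM in replicate 2 (83.9 to 100.4) and 55.9 CPM in replicate 1 (49.1 to 63.3), with a mean of 73.9 ± 25.5 CPM (SD, n = 2). This is close to the median of 94.2 CPM over the 411 genes with 10 or more counts in both libraries.

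Mir675 had 0 counts in both libraries. In mouse, miR-675 is cut from the first exon of H19 and is known to limit growth of the placenta, with Igf1r among its targets. The limit set by 0 reads, taken as 3 counts, was 0.568 CPM in replicate 2 and 0.681 CPM in replicate 1. Mir483, at the other end of the same imprinted domain, stood at 162 times that limit in replicate 2 and at 82.0 times in replicate 1. A level of 0 was the most common value among the annotated genes, as 64.7% of the 2202 had no count in either library, and lower levels of Mir675 than the limit were not detectable at this depth.

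**Figure D2:**
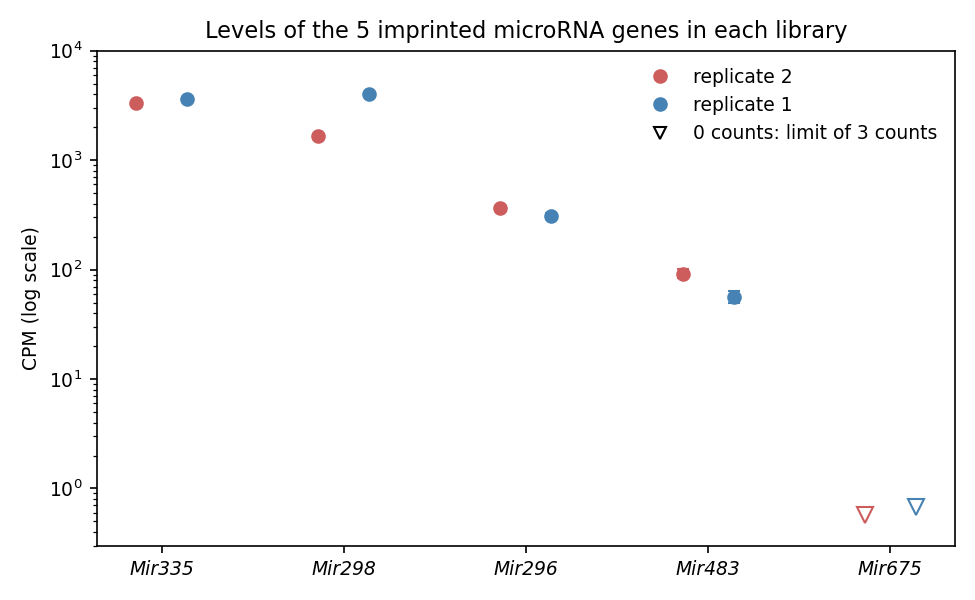
Level of each of the 5 genes in CPM on a log scale, in replicate 2 (red, left) and replicate 1 (blue, right), with exact 95% Poisson intervals, most of them smaller than the points. Open triangles mark the limit that 0 counts allow, 0.568 CPM in replicate 2 and 0.681 CPM in replicate 1 for Mir675. Mir298 shows the widest gap between the libraries, 1660.5 CPM in replicate 2 against 4031 CPM in replicate 1, and Mir335 and Mir298 change places.

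By mean level the order was Mir335, Mir298, Mir296, Mir483 and Mir675. The first 2 could not be ordered, since their places were exchanged between the libraries. Mir335 had 2.01 times the counts of Mir298 in replicate 2 (95% exact binomial interval 1.96 to 2.06) and 0.890 times in replicate 1 (0.871 to 0.909). The other neighbours kept their order in both libraries. Mir298 exceeded Mir296 by 4.53 times in replicate 2 and 13.0 times in replicate 1, and Mir296 exceeded Mir483 by 3.99 times in replicate 2 (3.61 to 4.42) and 5.53 times in replicate 1 (4.83 to 6.36). No test of level across samples was run, because an exact two-sided sign-flip test on 2 libraries cannot give a p below 0.5. Capture of a small RNA can vary with its sequence and was not measured, so these are ratios of counts, not of molecules.

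The libraries themselves could be compared gene by gene. Replicate 2 was set against replicate 1 by an exact conditional binomial test, two-sided, on TMM-adjusted library sizes, over the 504 genes with 10 or more counts in total. The test covers counting error only and compares these libraries, not conditions. All 4 detected genes passed it at a Benjamini-Hochberg adjusted p under 0.05, as did 55.8% of all tested genes, so passing does not set them apart. In replicate 2, 2 of the 4 were higher, where 32.5% of all tested genes were, and 2 were lower, where 23.2% were, with Mir335 among the lower ones. Under scaling to the Dlk1-Dio3 counts all 4 passed, where 59.3% of all tested genes did: 3 were higher, Mir335 now among them, where 41.1% of all were, and 1 was lower, where 18.3% were. That scaling adds 0.16 to the log2 ratio of every gene. It uses the summed counts of the Dlk1-Dio3 genes, so the most abundant of them weigh most. The median log2 ratio of the tested Dlk1-Dio3 genes under TMM was 0.00. The median log2 ratio, replicate 2 over replicate 1, was 0.05 over the 4 and 0.05 over all tested genes.

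Mir298 had the largest ratio of the 4, with a log2 ratio of -1.30 (95% interval -1.33 to -1.26) in replicate 2 over replicate 1. Its adjusted p in the exact binomial test was too small for double precision and came out as 0. Of the 504 tested genes, 53, or 10.5%, had a log2 ratio at least as large in either direction, Mir298 included. Mir483 was higher in replicate 2, with a log2 ratio of 0.69 (0.48 to 0.93) and an adjusted p of 8.75e-10 in the exact test, a size that 31.3% of the tested genes reached. Mir296 was higher by a log2 ratio of 0.23 (0.13 to 0.33; exact test, adjusted p = 1.59e-05), a size reached by 74.4%, and with a minimum of 100 counts, where the TMM factors lower every log2 ratio by 0.13, it no longer passed (0.10, adjusted p = 0.0749, exact test). Mir335 was lower in replicate 2, with a log2 ratio of -0.12 (-0.15 to -0.09; exact test, adjusted p = 3.37e-14), a size reached by 85.3%, and it was higher, at 0.04 (adjusted p = 0.0226, exact test), when the libraries were scaled to their Dlk1-Dio3 counts.

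**Figure D3:**
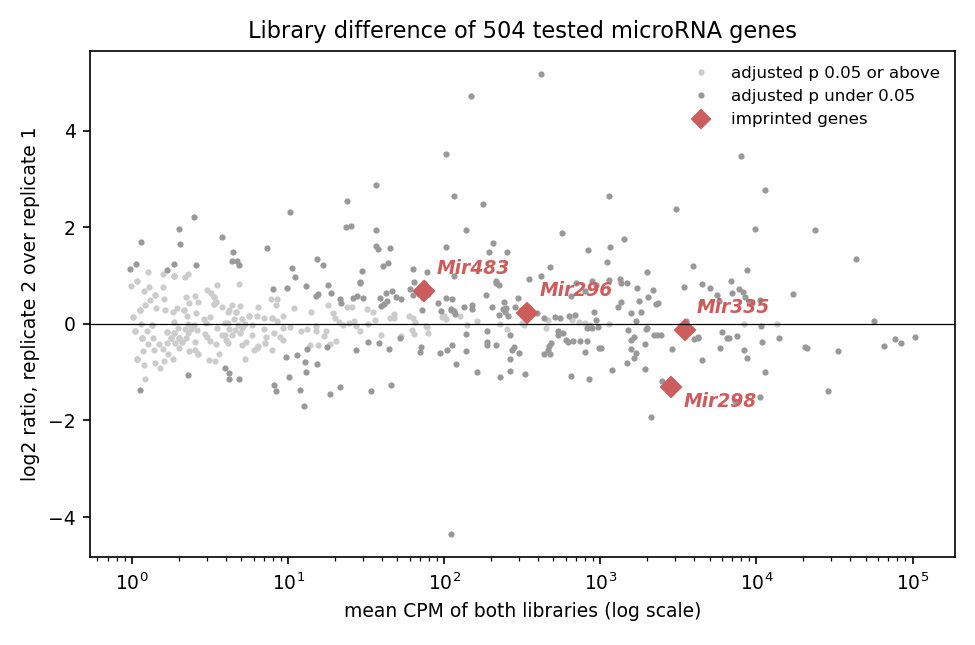
Log2 ratio of replicate 2 over replicate 1 against mean CPM (log scale) for the 504 tested microRNA genes, with genes past an adjusted p of 0.05 in darker grey and the 4 detected imprinted genes as red diamonds. The 4 lie between -1.30 for Mir298 and 0.69 for Mir483, and 10.5% of the tested genes lie at least as far from 0 as Mir298.

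These calls rest on counting error alone. With the spread that edgeR estimated between the libraries (a biological coefficient of variation of 0.426), a beta-binomial form of the test was run, and in it 0 of the 4 passed, each with an adjusted p of 1.00 in that exact form, and 3 of all 504 genes did (0.595%). That spread was estimated from the same 2 libraries and so holds the differences under test, and by construction few genes can pass. Without adjustment the p in this exact form was 0.836 for Mir335, 0.129 for Mir298, 0.852 for Mir296 and 0.487 for Mir483, so 0 of the 4 were under 0.05 there too. At a coefficient of variation of 0.1, 30.2% of the tested genes passed, with Mir298 (exact form, adjusted p = 4.91e-09) and Mir483 (adjusted p = 0.0134) among them. Mir335 (0.727) and Mir296 (0.465) did not pass at that adjusted p.

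Mir298 and Mir296, which share a strand 378 bases apart, were called in opposite directions between the libraries by the exact binomial test. Mir296 had 1937 counts against 8767 for Mir298 in replicate 2, or 18.1% of the 10704 counts of the pair (95% Wilson interval 17.4 to 18.8). In replicate 1 it had 1361 against 17752, or 7.12% of 19113 (6.76 to 7.49). The count of Mir296 relative to Mir298 was thus 0.221 in replicate 2 and 0.0767 in replicate 1, a ratio that was 2.88 times as high in replicate 2 (95% interval 2.67 to 3.11; two-sided Fisher's exact test, p = 1.71e-176). This comparison uses the counts of both genes in the same library and does not depend on how the libraries were scaled. It too covers counting error only.

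Unequal shifts of close neighbours were common in these libraries. There were 86 pairs of microRNA genes on the same strand, up to 1000 bases apart, with 10 or more counts in both libraries. Their log2 ratios differed by a median of 0.74 within a pair, against 1.53 for Mir298 and Mir296, and 14 of the 86 pairs (16.3%) differed by at least that much, this pair included. In 34 of the 86 (39.5%) the 2 genes were called in opposite directions. In level, the higher gene of a pair exceeded the lower by a median of 5.99 times, and Mir298 exceeded Mir296 by 8.42 times in mean CPM. Over the 53 pairs in which neither gene shares 20 bases with a gene elsewhere, the median difference was 0.80, and 9 of the 53 (17.0%) differed by at least 1.53. A gene can stand in several of these pairs, 38 of them lie in Dlk1-Dio3, and this set of pairs was chosen after the values of Mir298 and Mir296 were seen.

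**Figure D4:**
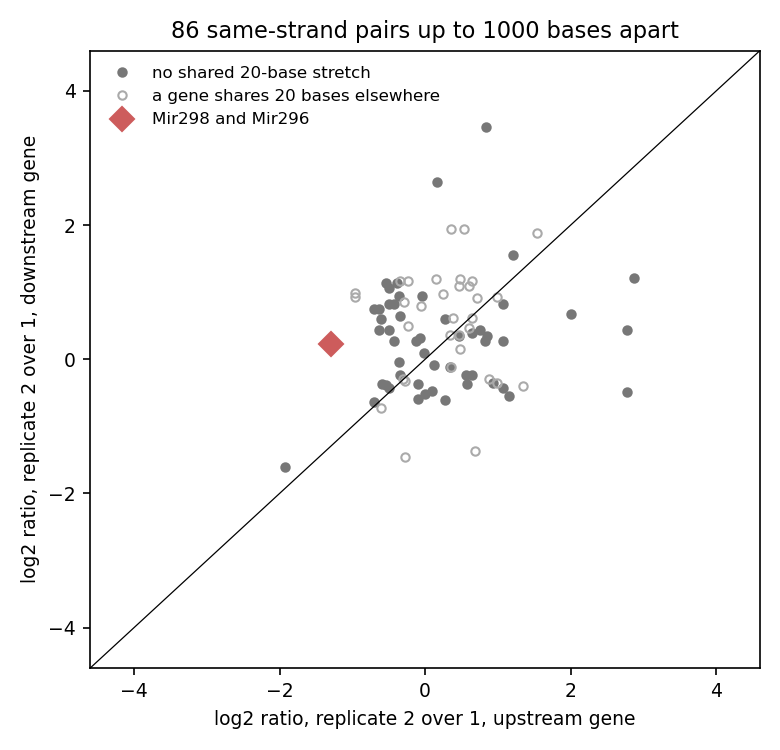
Log2 ratio of replicate 2 over replicate 1 of the downstream gene (y axis) against that of the upstream gene (x axis) for 86 same-strand pairs of microRNA genes up to 1000 bases apart, with the line of equal ratios. Open points hold a gene that shares 20 bases with a gene elsewhere. Mir298 and Mir296 (red diamond) lie at -1.30 and 0.23, off the line, 1 of 14 pairs with a difference of 1.53 or more.

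Some marker lists of other cell types also differed between the libraries, and their part in the differences above was not tested. The list for choroid plexus and ciliated epithelium had a sum of 1811 CPM in replicate 2 and 1333 CPM in replicate 1, with 7 of 8 genes at 10 or more counts in both libraries, 6 of 8 tested genes higher in replicate 2, 1 lower and no gene at 0 in both. The neuronal list had 7 of 9 tested genes higher and 1 lower. Of all tested genes 32.5% were higher. Mir296 and Mir483 were called higher too, while Mir335 and Mir298 were called lower. With lists of this size no test of a difference between them was made. The list for mesenchyme, meninges and vessel smooth muscle summed to 5982 CPM in replicate 2 and 6565 CPM in replicate 1, with 3 of 6 genes at 10 or more counts in both, 2 higher and 1 lower. The endothelial gene Mir126a stood at 37937 CPM in replicate 2 and 9729 CPM in replicate 1. The red blood cell list stood at 113 CPM in replicate 2 and 66.8 CPM in replicate 1. Of its 3 tested genes 2 were higher and 0 lower. The pancreas list of Mir375, Mir216a and Mir217 summed to 274 CPM in replicate 2 and 241 CPM in replicate 1. Nearly all of it was Mir375, at 271 CPM in replicate 2 and 239 CPM in replicate 1. The liver gene Mir122 stood at 27.7 CPM in replicate 2 and 30.2 CPM in replicate 1 and did not pass the test. Across the 504 tested genes, hairpin GC content and the log2 ratio had a Spearman's rho of 0.02, a description over genes of the same libraries.

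Set beside the other imprinted loci, the 5 genes lay within the range of levels of Dlk1-Dio3. That range is wide, from 4 genes without a count in either library to 56482 CPM, so lying within it says little. Of the 57 microRNA genes on the plus strand of Dlk1-Dio3 from Mir770 to Mir410, 50 had 10 or more counts in both libraries (87.7%). In Sfmbt2, whose intron holds a repeat array of similar hairpins, 8 of 119 had (6.72%), and 115 of the 119 share 20 bases with another gene of the array, so reads of these genes can be lost as multimapping. Over all 2202 genes the share was 18.7%, and 4 of the 5 genes described here (80.0%) reached it. The Dlk1-Dio3 genes held 14.6% of the counts of replicate 2 and 16.2% of those of replicate 1, led by Mir127 at 56482 ± 1909 CPM (SD, n = 2). The Sfmbt2 genes held 0.143% in replicate 2 and 0.175% in replicate 1, led by Mir467d at 659 ± 30.6 CPM.

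Mir335 and Mir298 each had a mean level below 9 of the 57 Dlk1-Dio3 genes, Mir296 below 28 and Mir483 below 41. For Mir298 the number was 16 in replicate 2 and 8 in replicate 1, and for Mir335 it was 9 in replicate 2 and 8 in replicate 1. The median of mean CPM was 338 over the 5 genes, 264 over the Dlk1-Dio3 genes, and 0 over the Sfmbt2 genes and over all genes. Between the libraries, 22 of 51 tested Dlk1-Dio3 genes were higher in replicate 2, 23 were lower and 6 did not pass, under TMM scaling. The share called was 88.2%, against 55.8% of all tested genes, and a gene with more counts passes this test at a smaller ratio. The Dlk1-Dio3 genes had a median log2 ratio of 0.00 and a range from -1.51 to 2.64. In that ordering 2 tested Dlk1-Dio3 genes had a lower ratio than Mir298. Of the 9 tested Sfmbt2 genes 1 was higher, 5 were lower and 3 did not pass, with log2 ratios from -1.71 to 0.56. With 2 libraries no test of a difference between these lists was made.

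**Figure D5:**
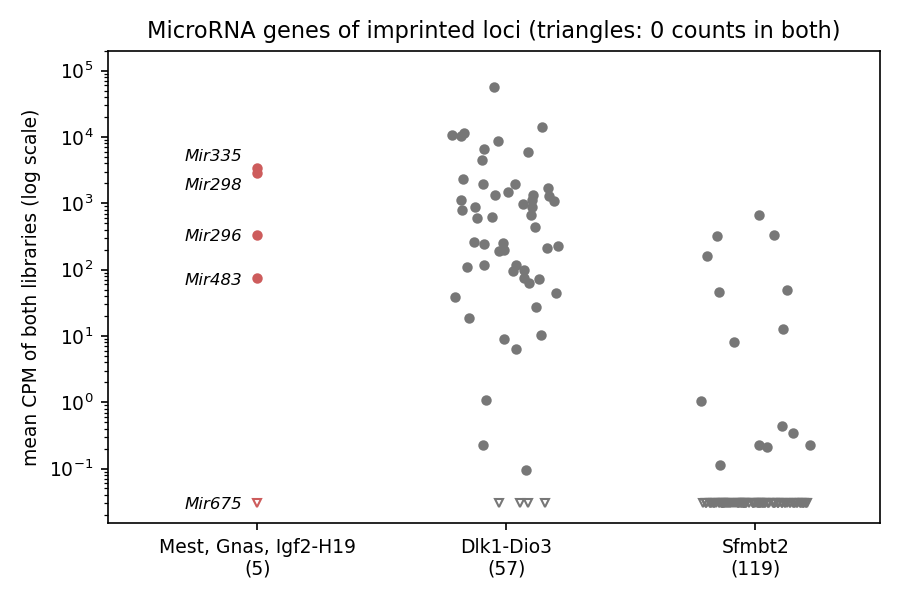
Mean CPM of both libraries (log scale) for the 5 genes described here (red), 57 Dlk1-Dio3 genes and 119 Sfmbt2 genes (grey), each point 1 gene, with triangles at the bottom for genes with 0 counts in both libraries. Mir335 at 3459 and Mir298 at 2846 CPM lie in the upper part of the Dlk1-Dio3 range, and Mir675 lies with the genes at 0.

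For each detected gene the 2 genes nearest in level were found by Euclidean distance in log2(CPM + 1) over the 2 libraries. Nearest to Mir335 were Mir219a-2, known for its part in oligodendrocyte differentiation (3589 CPM in replicate 2 and 3433 CPM in replicate 1, distance 0.12), and Mir187 (distance 0.18). Mir298 was not alone in its pattern: Mir107, in an intron of Pank1, had 1769 CPM in replicate 2 and 3986 CPM in replicate 1 (distance 0.09), and Mir320 had 1536 CPM in replicate 2 and 3430.3 CPM in replicate 1 (distance 0.26). Mir296 lay nearest to Mir7080 and Mir106b, at 0.19 each, and Mir483 to Mir539 of Dlk1-Dio3 (0.11) and Mir6944 (0.12). Mir219a-2 shares 20 bases with 1 other gene and Mir107 with 2, so their counts are uncertain. With 2 libraries, likeness means a like level and a like ratio and no more.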

How the data were processed

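Small RNA libraries were made from total RNA of mouse hippocampus (mm10, per the labels, and GENCODE M21 gene identifiers). The deposited files give raw read counts per microRNA gene, as whole numbers, for either strand, the strand of the gene and the opposite strand. The column order was read from the values, and no aligner is named: it is not given in the sources used here. Own-strand counts were used. Library sizes exclude the summary lines without a gene name, which held 65.4% of the reads of replicate 2 and 64.7% of those of replicate 1.

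Levels are CPM of own-strand counts. Genes with 10 or more counts in total (504) were compared by a two-sided exact conditional binomial test with edgeR 4.0.16 TMM factors (1.01 for replicate 2, 0.994 for replicate 1) and Benjamini-Hochberg adjustment, since 1 group gives edgeR's quasi-likelihood test no contrast. The test was checked on simulated counts. Alternatives used DESeq2 1.42.0 size factors, other count minimums, either-strand counts, plain totals and a beta-binomial form. R 4.3.3, Python 3.11.15 and scipy 1.17.1 were used. Genes were named by rule: the 5 genes, microRNA genes within 100 kb, genes sharing 20 bases or a seed, the 2 nearest in level, and the leading gene of each comparison list. Members and lists were chosen with earlier results of these data known. The close pairs, the scaling to Dlk1-Dio3 and the coefficient of variation of 0.1 were chosen after seeing the data. Mapping of reads from CAST/EiJ alleles to the reference was not tested.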

Additional observations from a re-analysis of the deposited data

How the results depend on the processing

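Each of 60 recomputed values was labelled by whether it held against the main setting. For 13 the label could not change by construction, though the value could (1 of 2 replicates left out, another pseudocount, or identical counts). Of the other 47, 32 held. A log2 ratio held if it kept its direction and side of the threshold, and a level if it moved by less than 1 SD. The number of genes called held if it stayed within a fixed fold of 281. The test called 281 of 504 tested genes, and between 252 and 299 under the other scalings, count minimums and either-strand counts. The number tested changed with some of these settings, so the share called was less stable than the count. With a minimum of 100 counts 252 of 313 were called, with no count minimum 275 of 778, and with either-strand counts 257 of 479. The test called 3 genes in the beta-binomial form at the estimated spread and 152 at a coefficient of variation of 0.1. At the estimated spread Mir335 (-0.12), Mir298 (-1.30), Mir296 (0.23) and Mir483 (0.69) no longer passed, and at 0.1 Mir335 (-0.12) and Mir296 (0.23) did not. These forms allow more spread than counting error by construction, and the estimated spread comes from the libraries under test. With a minimum of 100 counts the log2 ratio of Mir296 was 0.10 and did not pass: the TMM factors alone shift every log2 ratio by -0.13 there. Scaling to the Dlk1-Dio3 counts reversed Mir335 to 0.04 and moved the median log2 ratio of all tested genes to 0.21, against 0.05 under TMM, with 69.2% of calls higher in replicate 2 against 58.4%; with a minimum of 100 counts that share was 48.4%. Over all alternatives the log2 ratio ran from -0.26 to 0.04 for Mir335, -1.43 to -1.13 for Mir298, 0.10 to 0.39 for Mir296 and 0.56 to 0.85 for Mir483. With all reads as the denominator the mean levels were 1211, 999.8, 118 and 25.8 CPM for Mir335, Mir298, Mir296 and Mir483, and with either-strand counts Mir335 was at 3764 CPM. The counts of Mir335 were the same there. Only the library totals were smaller, 4777514 in replicate 2 and 4108367 in replicate 1. Leaving out each replicate gave 3333 to 3586 CPM for Mir335, 1660.5 to 4031 for Mir298, 309 to 367 for Mir296 and 55.9 to 91.9 for Mir483. The comparison of Mir296 with Mir298 needs both libraries and has no value without either. No paired analysis was possible because there is 1 group. Depth limits Mir675, where 3 counts equal 0.568 CPM in replicate 2 and 0.681 CPM in replicate 1.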
